A study of Mus musculus with 4 samples.

Results

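Tuft cells of the mouse small intestine were described here across 4 single-cell libraries, as 69 of 25788 barcodes that passed the limits on depth and mitochondrial RNA, out of 44277 barcodes in all. A passing barcode, meaning the sequence tag of 1 droplet, held at least 500 unique molecular identifiers (UMIs, each marking a captured transcript), at least 250 genes and at most 25% mitochondrial UMIs. It was taken as a tuft cell if it held at least 4 UMIs of Dclk1, Trpm5 and Avil together with at least 2 of these 3 genes detected, fewer than 5 UMIs of Chga and Chgb, under 0.2% Muc2 and no Cd3d, Cd3e or Cd3g. Dclk1 (chr3:55242303-55539068, build GRCm38) encodes a microtubule-associated kinase, Trpm5 (chr7:143071529-143094642) a cation channel and Avil (chr10:127000065-127020994) the actin-bundling protein advillin.

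Male C57BL/6J mice were fed a high-fat diet together with l-NAME, which blocks nitric oxide synthases, from 8 weeks of age for 7 weeks. The labels name 2 IPA samples, whose diet also held 562.5 mg of indolepropionic acid per kg, and 2 control samples without it, each a pool of 2 mice of 15 weeks. The high-fat diet and l-NAME were thus common to all samples, and the tissue was jejunum and ileum without Peyer's patches, from which viable (DAPI-negative) cells were sorted. The question was what dietary IPA, a bacterial metabolite of tryptophan, does in the gut. The libraries are known only by the number on their barcodes, and nothing used here ties a number to a diet, so tuft cells were described in libraries 1 to 4 and IPA was not compared with control. Diet, mouse and preparation cannot be told apart between libraries, and no p-value was computed.

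Tuft cells are rare chemosensory cells of the epithelium, with a tuft of long microvilli at the luminal side. They depend on the transcription factor Pou2f3 and sense luminal metabolites through G protein-coupled receptors, a taste-like cascade and Trpm5. In the small intestine they are the main epithelial source of interleukin-25, which acts on group 2 innate lymphoid cells, and they also make leukotrienes, prostaglandins and acetylcholine.

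The rule gave 23, 18, 12 and 16 tuft cells in libraries 1 to 4. In library 1 they were 0.405% of the epithelial barcodes (95% CI 0.257 to 0.607, exact Clopper-Pearson). Library 2 had 0.253% (0.150 to 0.400), library 3 had 0.250% (0.129 to 0.436) and library 4 had 0.260% (0.148 to 0.421). Over all libraries they were 0.291% (0.226 to 0.368) of 23751 epithelial barcodes. The intervals of the 4 libraries overlapped, and a difference in share was not tested. These intervals, like the Poisson intervals below, cover counting error only.

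Tuft cells held a median of 12163, 22295, 9736 and 16788 UMIs in libraries 1 to 4, and 15020 over all, against 27669 in the other epithelium. The other epithelium is the 22237 epithelial barcodes that were neither tuft, goblet (Muc2 at 0.2% or more) nor enteroendocrine (5 or more UMIs of Chga and Chgb). The depth of single tuft cells ran from 2924 to 101892 UMIs, so sums over cells weigh deep barcodes most. Of the 69 cells 65 held all 3 genes of the rule and 63 held at least 10 UMIs of them, 5 held 5 to 9 and 1 held exactly 4. Just outside, 3 barcodes held 2 UMIs of 2 of the genes, 0 held 3 UMIs, and 2 held at least 4 UMIs of 1 gene only. The exclusions on Chga and Chgb, Muc2 and Cd3 removed 1, 1 and 2 barcodes. Of 44063 distinct barcode sequences 214 occurred in more than 1 library, and 2 tuft cells carried such a sequence, though no sequence belonged to 2 tuft cells.

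The members were chosen by their UMIs of Dclk1, Trpm5 and Avil, which therefore support nothing here. Over the summed cells the label held up on genes that the rule did not use. Their list was chosen with earlier results of these data known. All 33 tuft markers outside the rule that the matrix contained (of 34 listed) had a higher level in tuft cells than in the other epithelium in each of the 4 libraries, and 28 of them were at least 4-fold higher in every library. By the same measure, 251 of 5883 genes (4.27%) were at least 4-fold higher in tuft cells and 44.2% were higher by any amount in every library, and because the rule chose the cells on this contrast, these counts are descriptions without a test. Both shares are of genes with at least 10 CPM in tuft cells, a minimum that list members counted as higher or lower by any amount did not have to meet. The markers together made up a median of 5.19% of the UMIs of a tuft cell (0.0661 to 8.38%), against a median of 0.0593% in the other epithelium. In 5 of the 69 tuft cells the markers were at or below 0.249%, the 99th percentile of the other epithelium. The weakest was a library 4 barcode with 4 UMIs of the rule's genes and 25735 UMIs in all.

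**Figure D1:**
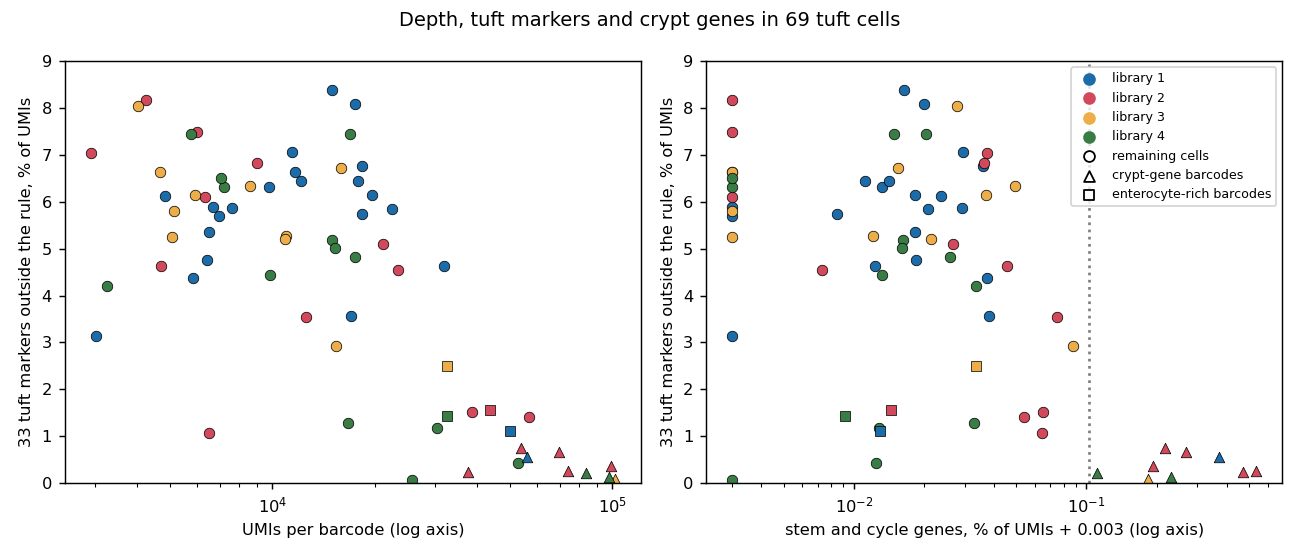
Share of UMIs from the 33 tuft markers outside the rule in each of the 69 tuft cells, against depth (left, UMIs, log axis) and against the share of 13 stem and cell-cycle genes (right, log axis, 0.003 added, cut at 0.1% dotted). Colours give the library and shapes the kind of barcode; the 9 crypt-gene barcodes lie at 37549 UMIs or more and below 0.8% markers, whereas the remaining cells have a median of 5.77%.

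The 69 barcodes were not uniform. A set of 9, with 1, 5, 1 and 2 in libraries 1 to 4, took at least 0.1% of its UMIs from 13 stem and cell-cycle genes and is called crypt-gene barcodes here. Another 4, 1 per library, took at least 5% from 16 enterocyte genes and are called enterocyte-rich. The other 56 cells (21, 12, 10 and 13) are called the remaining cells, and the library 4 barcode with the weakest tuft markers is among them. Both limits were set after the values were seen, and 8 barcodes lay within a factor of 2 of each, so these are ranges and not types.

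The crypt-gene barcodes had a median of 74020 UMIs, against 10902 in the remaining cells, and held 41.9% of all tuft UMIs. Their markers outside the rule made up a median of 0.263% of UMIs, against 5.77% in the remaining cells and 1.50% in the enterocyte-rich barcodes. They held a median of 3 UMIs of Dclk1, against 19.5 in the remaining cells. Barcodes of the other epithelium at or above the same crypt-gene limit numbered 2193 and had a median of 31567 UMIs and 0.0586% tuft markers. The limit of 4 UMIs is fixed whatever the depth, so a deep barcode passes it at a lower level. Of the 9, 1 was among the 6% of its library with the highest doublet score, and the part of doublets in them was not tested.

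Genes of the crypt were high in the crypt-gene barcodes. Olfm4, a stem cell product, was at 1208 CPM (UMIs of the gene for every 1000000 UMIs of the cells summed) in them and in 9 of 9, against 20.7 CPM in the remaining cells. The proliferation gene Mki67 was at 138 CPM in them, against 15.5 CPM in the remaining cells, and Top2a, which untangles replicated DNA, at 218 against 12.9 CPM. Sox4, a transcription factor of progenitors, was at 335 against 78.9 CPM. The limits used Olfm4, Mki67 and Top2a, so those values describe the choice, while Sox4 was outside it.

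Several tuft genes also divided the barcodes. The receptors Sucnr1 and Vmn2r26, the G protein Gnat3 and the cytokine Il25 had 0 UMIs in the 9 crypt-gene barcodes, which allows up to 4.45 CPM. In the remaining cells Sucnr1 was at 187 CPM, Gnat3 at 146, Vmn2r26 at 75.0 and Il25 at 72.4 CPM. Pou2f3 was detected in 9 of 9 crypt-gene barcodes at 40.1 CPM, against 125 CPM in the remaining cells and 42 of 56 of them. Hmx3, a homeobox factor, was at 37.1 against 91.8 CPM, and Nrep, a gene of neural cells, at 40.1 against 47.8 CPM. The transcription factors Spib and Gfi1b lay further apart, at 50.5 against 524 CPM and at 4.45 against 85.3 CPM, and so did the receptor Ffar3, at 13.4 against 299 CPM. Nrep was thus close in level in both. By cells it had a UMI in most crypt-gene barcodes, which were deeper, and in 7 of 56 remaining cells. The other genes were lower in the crypt-gene barcodes, down to no detection for Sucnr1, Vmn2r26, Gnat3 and Il25.

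**Figure D2:**
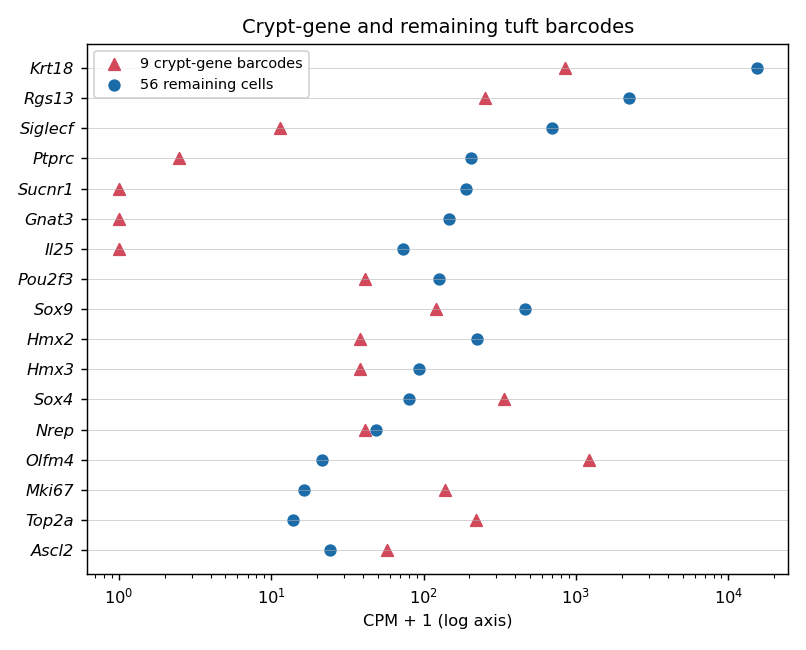
Level of 17 genes (CPM plus 1, log axis) in the 9 crypt-gene barcodes (triangles) and the 56 remaining cells (circles), each summed over its cells. Sucnr1, Gnat3 and Il25 are at 0 UMIs in the crypt-gene barcodes, while Olfm4 is at 1208 CPM in them and at 20.7 CPM in the remaining cells.

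Most crypt-gene barcodes were in libraries 2 and 4, so levels over all tuft cells of a library, given from here on, can differ from those in the remaining cells alone. Krt18, a keratin of simple epithelia, shows the size of this. It was at 16415, 4306, 8724 and 5926 CPM in all tuft cells of libraries 1 to 4 and at 21768, 9953, 19072 and 10603 CPM in the remaining cells, against 100, 111, 171 and 89.2 CPM in the other epithelium. Library 1 was highest in both sets of cells, and libraries 1 and 3 were about level in the remaining cells. The part of the barcodes' makeup in the differences between libraries was not tested.

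Among transcription factors, 8 of the 19 listed genes found were at least 4-fold higher in tuft cells than in the other epithelium in every library, and 13 of 19 were higher. Pou2f3 (chr9:43123927-43205755), which specifies the lineage, was at 125, 68.4, 99.5 and 50.3 CPM in tuft cells of libraries 1 to 4, against 0.0199 to 0.0947 CPM in the other epithelium. Spib, an Ets factor also of B cells and M cells, was at 570, 182, 335 and 165 CPM, against 0.0488 to 0.668 CPM. Sox9, a factor of crypt cells, was at 424, 224, 348 and 206 CPM in tuft cells, against 8.85 to 23.5 CPM. In each the lowest tuft library was above the highest library of the other epithelium.

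Gfi1b, a repressor of blood cell lineages, was at 27.4 to 90.2 CPM in tuft cells over the libraries, against at most 0.0868 CPM, and was detected in 40 of 69 cells. Hmx2 was at 85.9 to 220 CPM against at most 0.0279 CPM. The homeobox regulator Cdx2 and the nuclear receptor Hnf4a, general factors of intestinal epithelium, were at 61.0 to 145 and 125 to 199 CPM in tuft cells, against 114 to 130 and 120.5 to 149.8 CPM. Both overlapped with the other epithelium. Atoh1, the secretory fate factor, had 3 UMIs in 2 tuft cells (2.90% of them), against 1.89% of cells in the other epithelium.

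Pou2f3 belongs to the POU class 2 factors, which bind the octamer ATGCAAAT. This motif, searched on both strands (ATTTGCAT on the other), was in 10 of 263 promoter windows (3.80%) of the genes at least 4-fold higher in tuft cells, in 1.40% of the 6058 windows of the 5883 genes tested and in 1.74% of 32851 windows of all genes. A window runs from 250 bases before to 50 after a transcription start, from RefSeq on GRCm38.p6, and 187 of the 251 genes had a window. The 3 windows printed are those of the leading gene with the motif, of the prostaglandin D2 synthase and of the succinate receptor, because the levels of these genes are given here. The octamer is in capitals, and its presence is a description and not a binding site.
Kctd12, chr14:102982588-102982887, minus strand: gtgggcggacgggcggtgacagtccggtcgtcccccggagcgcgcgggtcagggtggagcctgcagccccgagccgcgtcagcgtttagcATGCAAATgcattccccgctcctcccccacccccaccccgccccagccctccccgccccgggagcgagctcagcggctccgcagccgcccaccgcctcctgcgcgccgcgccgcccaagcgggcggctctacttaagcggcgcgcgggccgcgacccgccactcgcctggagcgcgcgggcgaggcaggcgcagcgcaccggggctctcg
Hpgds, chr6:65144681-65144980, minus strand: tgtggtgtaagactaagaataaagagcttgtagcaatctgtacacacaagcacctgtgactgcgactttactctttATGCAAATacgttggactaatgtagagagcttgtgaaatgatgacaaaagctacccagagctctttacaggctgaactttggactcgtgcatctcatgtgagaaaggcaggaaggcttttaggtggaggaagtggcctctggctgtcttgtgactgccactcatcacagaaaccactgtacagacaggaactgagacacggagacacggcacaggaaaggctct
Sucnr1, chr3:60081619-60081918, plus strand: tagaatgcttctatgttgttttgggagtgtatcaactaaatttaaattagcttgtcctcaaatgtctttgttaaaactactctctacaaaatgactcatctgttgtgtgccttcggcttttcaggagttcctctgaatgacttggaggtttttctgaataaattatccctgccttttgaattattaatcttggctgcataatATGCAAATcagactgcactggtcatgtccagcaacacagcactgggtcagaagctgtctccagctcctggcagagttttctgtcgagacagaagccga
The octamer began 160 bases before the annotated start in Kctd12, 174 before in Hpgds and 48 before in Sucnr1.

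Of the receptors and sensors, few were detected. Among 27 listed surface receptors found, 4 were at least 4-fold higher in tuft cells in every library, 13 had 0 UMIs and 17 had at most 3. Sucnr1, the succinate receptor, was at 204, 35.1, 176 and 89.1 CPM in tuft cells of libraries 1 to 4, against 0.0209 to 0.0790 CPM in the other epithelium. Ffar3, which senses short-chain fatty acids, was at 310, 110, 185 and 70.8 CPM, against at most 0.0139 CPM. Vmn2r26, a vomeronasal receptor, was at 98.1, 14.0, 45.2 and 11.4 CPM, against at most 0.0237 CPM. Each of these was detected in tuft cells of every library, with library 1 highest and library 2 or 4 lowest. In the remaining cells library 3 was highest for Sucnr1, at 323 CPM, against 258 CPM in library 1.

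Sucnr1 was found in 38, Ffar3 in 55 and Vmn2r26 in 22 of the 69 tuft cells. In the 56 remaining cells, 52 held at least 1 of the 3 receptors and 15 held all 3. Gprc5c, an orphan receptor, was at 162, 56.1, 145 and 64.0 CPM in tuft cells, against at most 0.0237 CPM. The sweet and umami receptor subunits Tas1r1 and Tas1r2, the 4 bitter receptors listed (Tas2r105, Tas2r108, Tas2r138 and Tas2r143) and the fatty acid receptor Ffar2 had 0 UMIs, which allows up to 1.87 CPM in tuft cells. Tas1r3 had 3 UMIs. Taste receptors were therefore at or near the limit of detection, while Sucnr1, Ffar3 and Vmn2r26 were above it.

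In the taste cascade behind such receptors, 9 of 19 listed genes were at least 4-fold higher in tuft cells in every library and 5 had 0 UMIs. Of all genes tested 4.27% were at least 4-fold higher. Trpm5, which the rule used, was at 1209, 365, 805 and 386 CPM in tuft cells, against 0.268 to 0.530 CPM. Its level describes the choice of cells and supports nothing in that count. Plcb2, the phospholipase of taste cells, was at 127, 24.5, 54.3 and 38.9 CPM, against at most 0.126 CPM. Plcg2, which signals in B cells and mast cells, was at 358, 119, 217 and 158 CPM, against 5.20 to 7.60 CPM. Both phospholipases were thus higher in tuft cells in each library.

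Gnat3 (chr5:17962570-18019668), the taste G protein alpha-gustducin, was at 133, 92.9, 31.7 and 20.6 CPM in tuft cells, and at 0 UMIs in the other epithelium of all 4 libraries. It was detected in only 21 of 69 tuft cells. Its partner Gng13 was at 204, 78.9, 27.1 and 73.1 CPM, against at most 0.111 CPM, in 40 tuft cells. Gnb3, the beta subunit of the taste cascade, had 0 UMIs in tuft cells, whereas the common beta subunit Gnb1 was at 271 to 316 CPM, against 399 to 478 CPM in the other epithelium. Of 19 remaining cells with Gnat3, 10 also held Gng13.

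Downstream, the calcium release channel Itpr2 was at 212, 121, 204 and 114 CPM in tuft cells, against 3.50 to 7.65 CPM. The related Itpr3, the channel of taste buds, was at 21.0 to 63.3 CPM, against 17.2 to 24.2 CPM, and overlapped. Rgs13 (chr1:144137386-144177372), an inhibitor of G protein signalling, was at 2162, 922, 1090 and 1010 CPM, against 0.0553 to 0.167 CPM. Of all genes it had the largest lowest ratio, 810 with 1 CPM added to each side, in its weakest library.

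**Figure D3:**
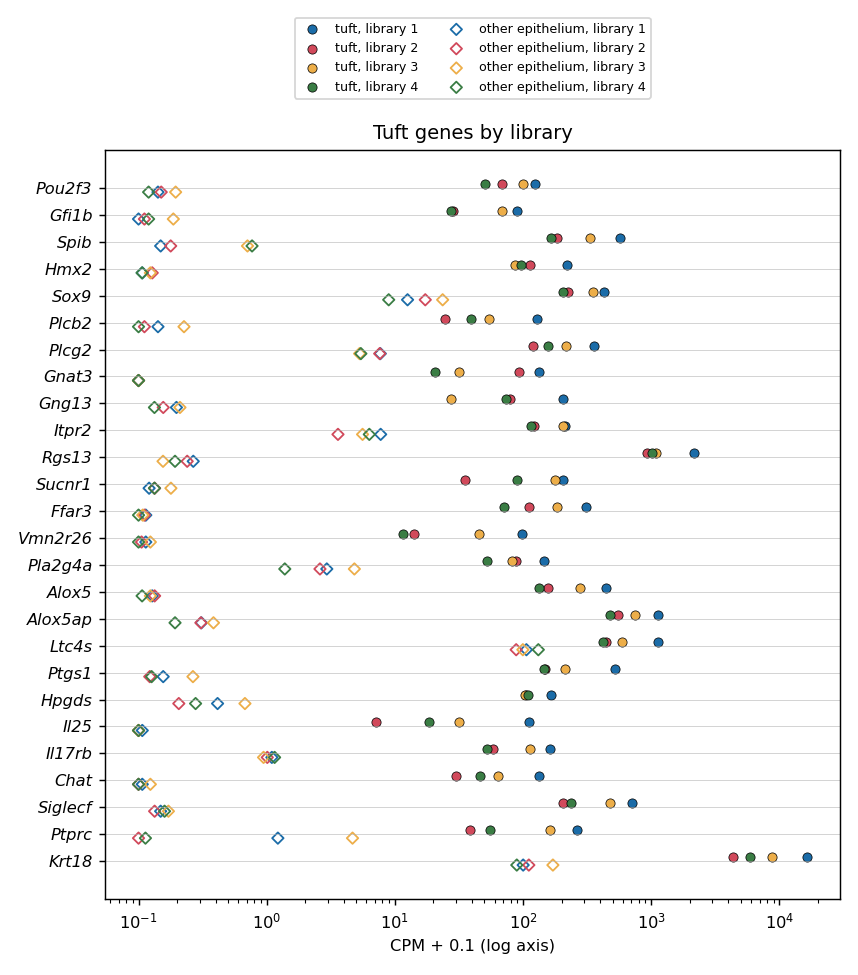
Level of 26 genes (CPM plus 0.1, log axis) in tuft cells (filled circles) and in the other epithelium (open diamonds), 1 symbol per library. Nearly all tuft symbols lie far to the right of the diamonds, and the 4 tuft symbols of Il25 spread from 7.01 to 111 CPM.

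At equal depth the tuft genes stayed apart. Each cell was thinned to 2900 UMIs, which left out 0 of 69 tuft cells, 947 of 22237 other epithelial, 8 of 499 enteroendocrine and 325 of 1490 T cells. Rgs13 then had a UMI in 84.1% of tuft cells, against 0.0188% of the other epithelium, and without thinning in 97.1% against 0.270%. Il25 had one in 18.8% (95% CI 10.4 to 30.1) of thinned tuft cells and in 40.6% without thinning. Chat was found in 33.3%, Sucnr1 in 30.4%, Pou2f3 in 31.9% and Gnat3 in 15.9% of thinned tuft cells. Detection of these low genes in single cells moved with depth.

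**Figure D4:**
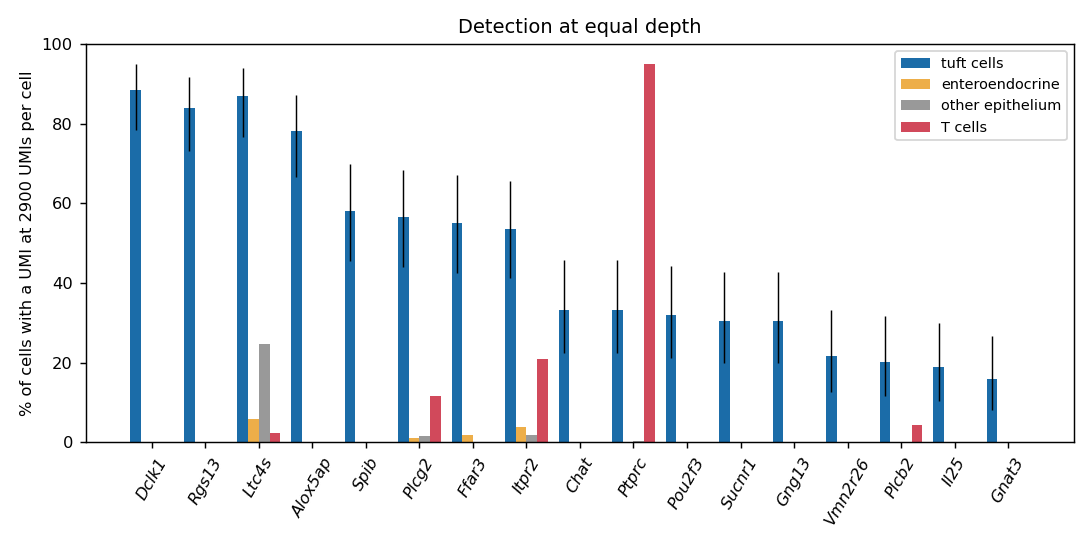
Share of cells with a UMI of 17 genes after thinning each cell to 2900 UMIs, in tuft cells (69 cells, bars with exact 95% intervals that cover counting error only), enteroendocrine cells, other epithelium and T cells. Rgs13 is at 84.1% in tuft cells and at 0.0188% in the other epithelium, and Ptprc is the gene shown that is higher in T cells than in tuft cells.

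The enzymes of lipid mediators were divided by pathway. Of 20 listed, 5 were at least 4-fold higher in tuft cells in every library, 5 were lower in every library and 6 had 0 UMIs. Of all 1198 genes with at least 100 CPM in the other epithelium, 47.4% were lower in every library. Alox5 (chr6:116410071-116461178), which starts leukotriene synthesis, was at 446, 156, 276 and 133 CPM in tuft cells, against 0.00662 to 0.0335 CPM. Its activating protein Alox5ap was at 1125, 549, 746 and 480 CPM, against at most 0.284 CPM. Ltc4s, which makes leukotriene C4, was at 1135, 442, 588 and 418 CPM, against 88.2 to 131 CPM, so the other epithelium also held it. Pla2g4a, which releases arachidonic acid, was at 146, 87.7, 81.4 and 52.6 CPM, against 1.28 to 4.73 CPM.

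For prostaglandins, Ptgs1 (cyclooxygenase 1) was at 525, 149, 213 and 146 CPM in tuft cells, against at most 0.166 CPM. Hpgds, which makes prostaglandin D2, was at 164, 105, 104 and 110 CPM, against at most 0.576 CPM. The inducible Ptgs2 had 6 UMIs, and Ptges, Ptgds, Tbxas1, Alox12 and Alox15 had 0. Lta4h, which leads to leukotriene B4 instead, was at 45.1 to 127 CPM in tuft cells and at 140 to 153 CPM in the other epithelium, lower in each library. In the remaining cells 51 of 56 held Alox5, Alox5ap and Ltc4s together, and 41 of 56 held these with Ptgs1 and Hpgds.

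Of the type 2 cytokine circuit, 1 of 16 genes was at least 4-fold higher in tuft cells in every library, 6 were higher and 3 lower by any amount. The 6 are not more than the 44.2% among all genes tested. Il25 (chr14:54932695-54935837) was at 111, 7.01, 31.7 and 18.3 CPM in tuft cells of libraries 1 to 4, from 61 UMIs in 28 cells, and had 1 UMI in library 1 and 0 in the others in the other epithelium. In the remaining cells library 1 had 151 CPM of it (95% CI 109 to 205), library 2 had 15.6 (3.22 to 45.6), library 3 had 80.9 (32.5 to 167) and library 4 had 22.4 (7.26 to 52.2). The interval of library 1 lay above those of libraries 2 and 4 and overlapped with that of library 3, though it leaves out the spread between cells. A single library 1 cell held 33.3% of that library's Il25 UMIs, and over all tuft cells of library 1 the level was 111 CPM with it and 76.6 CPM without it.

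The receptors of the circuit were also present. Il17rb, a subunit of the interleukin-25 receptor, was at 162, 57.9, 113 and 52.6 CPM in tuft cells, against 0.845 to 1.05 CPM. Il13ra1, of the interleukin-13 receptor, was at 220, 133, 99.5 and 89.1 CPM, against 50.3 to 78.0 CPM. Tslp, another cytokine of type 2 immunity, was found in 12 tuft cells with 20 UMIs. Il13 and the goblet cell product Retnlb had 0 UMIs in tuft cells.

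Chat (chr14:32408203-32465909), which makes acetylcholine, was at 133, 29.8, 63.3 and 45.7 CPM in tuft cells, against at most 0.0237 CPM, and was found in 47 of 69. The vesicular acetylcholine transporter Slc18a3 (chr14:32462437-32464850) lies within the Chat locus and had 3 UMIs, so these reads cannot be assigned with certainty. The choline transporter Slc5a7 had 1 UMI. Of 21 genes of acetylcholine and neural function, 3 were at least 4-fold higher in tuft cells and 7 had 0 UMIs, among them Uchl1, Tubb3 and Snap25. Of the 21 genes 12 had at most 3 UMIs.

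Genes better known from blood cells made up a large group. Of 27 such signalling genes, 18 were at least 4-fold higher in tuft cells in every library, and the median log2 ratio of the 27 was 6.96, 5.31, 5.28 and 5.78 in libraries 1 to 4. Over the 5883 genes tested the median log2 ratio was 0.30, 0.42, 0.24 and 0.39. The kinase Matk was at 1881, 501, 1289 and 699 CPM in tuft cells, against 0.318 to 1.27 CPM in the other epithelium, and the exchange factor Vav1 at 358, 123, 235 and 158 CPM, against at most 0.458 CPM. The phosphatase Ptpn6 was at 1239, 372, 597 and 391 CPM, against 13.2 to 18.5 CPM.

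Ptprc, which encodes CD45, the surface phosphatase of blood cells, was at 263, 38.6, 163 and 54.9 CPM in tuft cells, against 1.12, 0, 4.57 and 0.0132 CPM in the other epithelium. It was found in 47 of 69 tuft cells, and in 1 of 9 crypt-gene barcodes against 42 of 56 remaining cells. Libraries 1 and 3, with the higher Ptprc, also held 306 and 1175 T cells, against 4 and 5 in libraries 2 and 4. Libraries 2 and 4 also held most crypt-gene barcodes. A link of tuft Ptprc to T cell number or to these barcodes was not tested. Of 10 T cell markers 7 had 0 UMIs in tuft cells, Cd3d, Cd3e and Cd3g among them by the rule, and the markers summed to 5.30, 0, 27.1 and 0 CPM in tuft cells, against 31.8, 0.799, 167 and 1.48 CPM in the other epithelium. The 7 basophil and mast cell markers had 0 UMIs. The blood cell genes Fcer1g, Tyrobp and Cd53 had 0 and Laptm5 had 1.

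Of the 251 genes at least 4-fold higher in tuft cells, 87 (34.7%) were at 10 CPM or more in the T cells of libraries 1 and 3, against 85.6% of all genes tested. The 251 were chosen for a lower level in the other epithelium and the genes tested were not, so these are shares of unlike sets. Siglecf, a sialic acid receptor of eosinophils, was at 711, 203, 475 and 238 CPM in tuft cells and at 0 in T cells. The small GTPase Rac2 was at 891, 230, 606 and 274 CPM in tuft cells and at 823 CPM in T cells.

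Mouse tuft cells have been divided elsewhere into a neural-like and an immune-like kind. Of the 9 immune-like genes listed all were higher in tuft cells than in the other epithelium in every library, and of the 7 neural-like genes all were. In the remaining cells the immune-like genes made up a median of 0.828% of UMIs and the neural-like genes 0.0702%. The lists hold different genes, so these shares cannot be set against each other. Ptprc was found in 42 of the 56 remaining cells, Nrep, a neural-like gene, in 7 and both in 2. Sox4, found in 16 of the 56, was in 6 of the 7 cells with Nrep. Crypt-gene barcodes also held Nrep, as given above. Nrep was at 5.30, 57.9, 27.1 and 52.6 CPM in all tuft cells of libraries 1 to 4, crypt-gene barcodes included, with library 1 lowest. With 7 cells, no kinds were set apart.

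The cytoskeleton gave a mixed picture. Of 28 listed genes of the apical bundle and cytoskeleton, 9 were at least 4-fold higher in tuft cells in every library, 18 were higher and 6 lower. Krt18 was given above, and its partner Krt8 was at 12707.5, 4704, 6829 and 6530 CPM in tuft cells, against 2435 to 2642 CPM. The actin bundler Espn was at 1072, 508, 746 and 450.2 CPM, against 251 to 375 CPM, and the tubulin Tuba1a at 1196, 389, 665 and 430 CPM, against 0.185 to 0.663 CPM. Pls1 and Vil1, bundlers of the enterocyte brush border, were at 119 to 199 and 303 to 658 CPM in tuft cells, against 550.2 to 880.5 and 644 to 899 CPM.

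Among the 25 genes with the largest lowest ratio over libraries were Rgs13, Sh2d6, Dclk1, Kctd12, Nrgn, Lrmp, Alox5ap, Avil, Matk, Tuba1a, Trpm5, Siglecf, Fyb, Basp1, Ptgs1, Rac2, Ly6g6f, Reep5, Sh2d7, Alox5, Tspan6, Strip2, Cd300lf and Atp2a3. Dclk1, Avil and Trpm5 were used by the rule, so their place there describes the choice of cells. The ratios of the 25 in the weakest library ran from 106 to 810. Kctd12, a subunit of GABA-B receptors, was at 1682, 850, 1162 and 654 CPM in tuft cells, against 0.357 to 1.09 CPM in the other epithelium and 76.4 CPM in enteroendocrine cells. Nrgn, a calmodulin-binding protein of neurons, was at 1846, 573, 787 and 498 CPM in tuft cells, against 0.0860 to 0.261 CPM. Atp2a3, a calcium pump of the endoplasmic reticulum, was at 1186, 347, 828 and 382 CPM, against 297, 209, 238 and 196 CPM in goblet cells and 1.02 to 3.73 CPM in the other epithelium.

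Genes shared with other secretory cells were counted in the same way. In enteroendocrine cells 118 of 6561 genes (1.8%) were at least 4-fold above the other epithelium in every library, and 16 of them were also high in tuft cells, 6.37% of the tuft list and 13.6% of the enteroendocrine list. Of the 251 tuft genes 147 were also at least 4-fold above enteroendocrine cells in every library. Sct, which encodes the hormone secretin, was among the 16. It was at 597, 133, 511 and 208 CPM in tuft cells, in 60 of 69, against 13279.6, 1530.2, 12164 and 7620.5 CPM in enteroendocrine cells and 20.5 to 33.5 CPM in the other epithelium.

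Each other enteroendocrine gene of the 17 listed had at most 10 UMIs in tuft cells, so Sct was the listed hormone gene above that level. Chga and Chgb are among the 17 and were held low by the rule. In the crypt-gene barcodes Sct was at 22.3 CPM, close to the other epithelium, and in the remaining cells at 596 CPM. Hepacam2, an adhesion protein, was also in both lists, at 289, 161, 231 and 174 CPM in tuft cells, against 185, 55.5, 293 and 191 CPM in enteroendocrine cells and 1.09 to 3.66 CPM in the other epithelium. In goblet cells 251 of 5753 genes (4.36%) were at least 4-fold above the other epithelium, and 28 of them were also high in tuft cells, 11.2% of the tuft list and 11.2% of the goblet list.

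On the lower side, 49 of 1198 genes (4.09%) with at least 100 CPM in the other epithelium were at least 4-fold lower in tuft cells in every library. All 16 listed enterocyte genes were lower by any amount in every library, against 47.4% of the 1198. Fabp1, which carries fatty acids in the cytoplasm, reached 13455, 7822, 7127 and 9524 CPM in tuft cells, against 33137, 28992, 26026 and 36443 CPM in the other epithelium, and was found in all 56 remaining cells. In T cells, which should lack it, Fabp1 was at 1750 CPM and in 99.3% of cells, and no correction for free RNA was made. The 10 genes with the smallest highest ratio were AY761184, Itln1, Gm14851, Defa30, Defa24, Lyz1, Defa22, Defa21, Reg3b and Aldh1a1.

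Most of those 10 are Paneth cell products, whose reads may be divided among near-identical copies. Paneth cells were not taken out of the other epithelium, so its levels of these products include theirs. A comparison without Paneth cells was not made. Defa24, an alpha-defensin, was at 82.2, 212, 190 and 130 CPM in tuft cells, against 2566, 6023, 6612 and 1933 CPM. Lyz1, lysozyme, was at 18.6, 160, 81.4 and 43.4 CPM, against 604, 1892, 2046 and 708 CPM. Library 1 was the lowest tuft library for both. By cells the classes lay closer. Lyz1 had a UMI in 53.6% of tuft cells and 54.3% of the other epithelium, and Defa24 in 69.6% and 80.1%, without thinning. Aldh1a1, which makes retinoic acid, was at 45.2 to 64.0 CPM in tuft cells, against 303 to 576 CPM.

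Between libraries, genes of the type I interferon response were highest in tuft cells of library 1. Of 22 listed, 20 were in the matrix and 14 had at least 20 tuft UMIs. In library 1 all 14 were at least 2-fold above each other library, whereas 176 of 7446 genes (2.36%) with at least 20 tuft UMIs were. In the remaining cells all 14 were again, beside 1.12% of 4925 genes. The minimum of 20 UMIs was on the sum over libraries, so a gene high in library 1 alone could pass it. Oas2 was such a gene, at 76.9 CPM in tuft cells of library 1 and at most 2.29 CPM elsewhere. Listed genes below the minimum were not counted. The 14 of 14 is therefore partly set by the minimum and is a description. The 14 genes summed to 4329 CPM in the remaining cells of library 1, against 754, 913 and 555 CPM in libraries 2 to 4. Interferon genes were also high in the other epithelium of library 1, where they summed to 2567 CPM, against 911, 1110 and 1157 CPM in libraries 2 to 4.

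Irf7, the master regulator of the type I response, was at 599, 52.6, 127 and 86.8 CPM in tuft cells of libraries 1 to 4, against 150, 27.9, 48.0 and 43.5 CPM in the other epithelium. Isg15, a ubiquitin-like modifier, was at 339.5, 14.0, 9.04 and 2.29 CPM, against 246, 25.2, 34.7 and 16.5 CPM. Oas2, which senses double-stranded RNA, was at 76.9, 1.75, 0 and 2.29 CPM, against 1.98, 0.0894, 0.182 and 0.0860 CPM. Library 1 was the highest in both kinds of cell for all 3, and the 0 of Oas2 in library 3 allows up to 13.6 CPM.

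The genes did not share 1 pattern against the other epithelium. In library 1, 13 of the 14 were higher in tuft cells than in the other epithelium, against 9, 4 and 7 of 14 in libraries 2 to 4. Bst2, the antiviral tetherin, was at 119 CPM in tuft cells of library 1, against 32.3 CPM in the other epithelium, and at 24.5 CPM or less in tuft cells of the other libraries, against at most 10.2 CPM. Ifit1, which binds viral RNA, was the exception in library 1, at 61.0 CPM in tuft cells against 118 CPM. Ifi27l2b stood at 1631, 299.8, 412 and 245 CPM in tuft cells, against 1607, 748, 889 and 981 CPM, close to the other epithelium in library 1 and lower in libraries 2 to 4.

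The response was spread over the tuft cells of library 1. Isg15 was found in 18 of 21 remaining cells of library 1, 5 of 12 of library 2, 2 of 10 of library 3 and 0 of 13 of library 4, which allows up to 23.1% of cells with a UMI. At 2900 UMIs per cell, 14 of 23 tuft cells of library 1 held it, 1 of 18 of library 2, 0 of 12 of library 3 and 0 of 16 of library 4, where the counts of 0 allow shares of up to 25% and 18.8%. These limits are on cells with a UMI and not on cells that express the gene. The cell with most Isg15 in library 1 held 17.2% of its UMIs. The 14 genes made up 0.132 to 0.868% of the UMIs of single remaining cells in library 1, with a median of 0.510%, and the medians were 0.0617, 0.104 and 0.0556% in libraries 2 to 4.

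**Figure D5:**
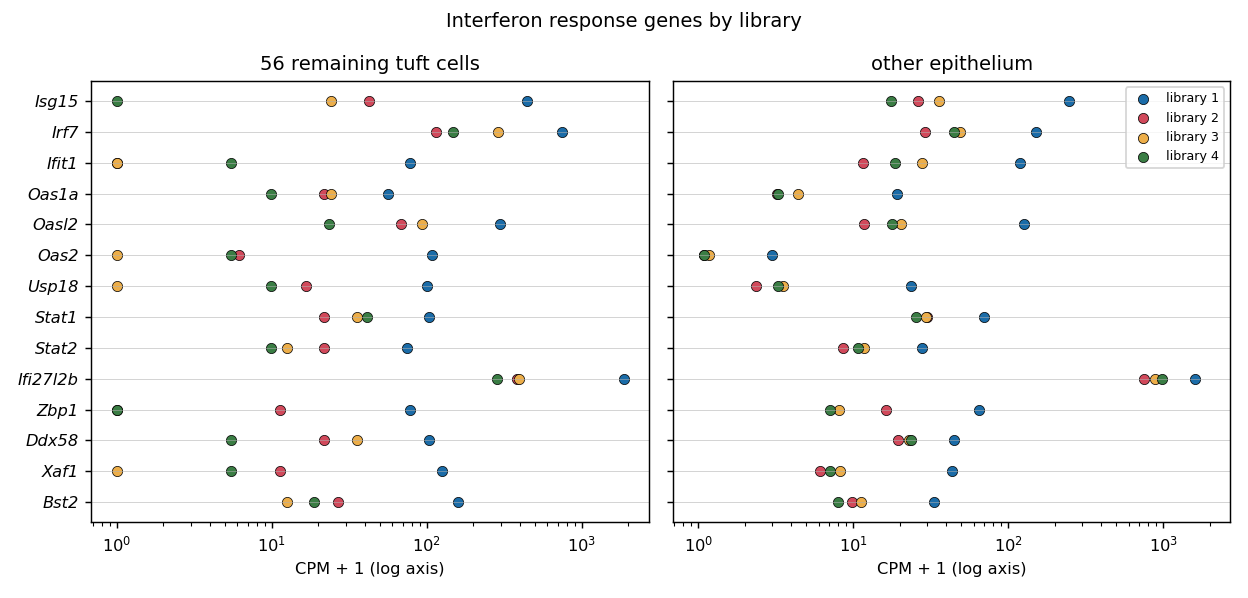
Level of the 14 measured interferon response genes (CPM plus 1, log axis) in the 56 remaining tuft cells (left) and in the other epithelium (right), 1 colour per library. Library 1 is the rightmost point for each gene in both panels; in the left panel the 14 genes sum to 4329 CPM in library 1, against 555 to 913 CPM in the others.

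Of class I antigen presentation, 4 of 13 measured genes were at least 2-fold above every other library in library 1, and 3 of 9 in the remaining cells. H2-D1, a class I heavy chain, was at 3042, 598, 1289 and 649 CPM in tuft cells, against 623, 422, 439 and 411 CPM in the other epithelium. The related H2-K1 was at 1249, 354, 656 and 382 CPM in tuft cells, against 1359, 729, 1024 and 948 CPM. H2-D1 was thus higher and H2-K1 lower in tuft cells in every library. Reads of these genes may be divided among similar family members.

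Class II genes were low in tuft cells. Cd74, the invariant chain, was at 37.1, 172, 127 and 0 CPM in tuft cells, against 244, 489.6, 307 and 16.2 CPM in the other epithelium, and was found in 12 tuft cells. It was at 199 CPM in the crypt-gene barcodes, against 7.76 CPM in the remaining cells. A single library 2 barcode held 83.7% of the Cd74 UMIs of its library. Of the 140 Cd74 UMIs in tuft cells 134 were in crypt-gene barcodes.

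Among other genes that differed most between libraries, several had most of their UMIs in single barcodes. Of the 10 with the largest ratio over libraries, Fabp6 had 98.6% of its library 4 UMIs in 1 cell. This cell was the barcode of 25735 UMIs with the weakest tuft markers, 0.0661% of UMIs. It was counted among the remaining cells and held 268 of the 287 Reg3g UMIs of library 4. Reg1 had 93.9% of its library 1 UMIs and Agr2 96.0% of its library 4 UMIs in 1 barcode each. Zg16, Muc2 and Fcgbp, goblet cell products, had 93.0, 96.6 and 98.5% of their library 3 UMIs in 1 crypt-gene barcode of 101892 UMIs. Reg3b and Reg3g, antimicrobial lectins, had 52.4 and 54.6% of their library 2 UMIs in 1 barcode each. Without these barcodes library 2 still had 1551 CPM of Reg3b and 486 CPM of Reg3g, against 54.3 and 49.7 CPM in library 3. Over all libraries Reg3b was at 1211 CPM in crypt-gene barcodes, 7325 CPM in enterocyte-rich barcodes and 314 CPM in the remaining cells. Reg3g was at 543, 1726 and 496 CPM in them. Of the 384 Reg3g UMIs of the remaining cells, 268 were in the barcode with the weakest tuft markers. The part of these kinds of barcode in the spread of these 2 genes between libraries was not tested. The top cell of Isg15 held 17.2%, as given above.

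Reg3b was at 1061, 3012, 54.3 and 210 CPM in tuft cells of libraries 1 to 4, against 10023, 21046, 1203 and 1715 CPM in the other epithelium, in the same order.

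Receptors through which indole compounds can act were scarce in tuft cells. Ahr, the aryl hydrocarbon receptor, was at 15.9, 5.26, 4.52 and 20.6 CPM in tuft cells, against 8.14 to 10.7 CPM in the other epithelium, and was found in 14 of 69. Nr1i2, the pregnane X receptor, was at 29.2, 29.8, 22.6 and 29.7 CPM, against 41.3 to 52.1 CPM, lower in each library. The Ahr target Cyp1a1 had 7 UMIs, all in 1 crypt-gene barcode of library 2. Nos1 and Nos3, targets of l-NAME, had 0 UMIs and Nos2 had 5. Of the 15 genes of this group, 0 were at least 4-fold higher and 7 were lower in every library, a share close to the 47.4% among all genes tested for it.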

How the data were processed

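The epithelial layer of pooled mice was released, sorted for viable cells and made into 3′ v2 droplet libraries with UMIs, per the labels' protocols. Per the submitters' processing notes, Cell Ranger 6.1.1 was used and the build was mm10. The authors deposited 1 matrix of UMI counts for 32285 genes, in whole numbers and without normalization, as its header and values show. How libraries were merged and barcodes filtered is not stated in these sources.

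The libraries held 173564399 to 209357877 UMIs each. They were told apart by barcode number only, and the planned edgeR test of IPA against control was not run because no label or file ties a number to a sample. All gene lists, like the rule for the members, were chosen with earlier results of these data known.

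CPM is the summed count of a gene in a class of a library, relative to all UMIs of that class there. Ratios carry 1 CPM on each side. A gene was counted as higher with at least 10 CPM in tuft cells and a ratio of at least 4 in every library, and as lower with at least 100 CPM in the other epithelium and a ratio at least 4-fold below it. Levels are compared within a gene, since these are 3′ end counts. Of 331 listed genes 325 were found by symbol. Genes named outside the lists were the 25 with the largest lowest ratio, the 10 with the smallest highest ratio, and the 10 of at least 50 tuft UMIs with the largest ratio between libraries. A gene picked by these rules is not reported here. Shares have exact Clopper-Pearson and CPM exact Poisson intervals, and counts of 0 carry an upper limit of 3 counts. Epithelial barcodes had more UMIs of 6 epithelial than of 8 immune genes, and T cells at least 3 UMIs of Cd3 genes without being epithelial. The ratio step was tested on simulated counts.

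Doublets were kept. Scrublet in scanpy 1.11.5 marked 4, 1, 157 and 1 barcodes in libraries 1 to 4, under 0.5% in 3 of them, and was not used to remove cells, and removal of the 6% with the highest score was tried as an alternative. Alternatives covered limits, gate, depth, denominator and weighting. Python 3.11.15, numpy 2.4.6 and scipy 1.17.1 were used.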

Additional observations from a re-analysis of the deposited data

Results flagged for a closer look

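Outside the barcodes that passed the limits, 2 further barcodes met the tuft rule on its marker genes, 1 in library 1 and 1 in library 3. Both were above 25% mitochondrial UMIs, with a median of 30.1%, and they had a median of 14622 UMIs and 3.54% tuft markers outside the rule. They were not counted as tuft cells. What sets their mitochondrial share was not tested.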

How the results depend on the processing

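No paired analysis was possible because no label or file ties the barcode numbers to labelled samples or replicates, and the test of IPA against control with its alternatives (replicate block, DESeq2 and replicates left out) was therefore not run. The number of genes at least 4-fold higher in tuft cells was 251. It was 100 with a prior of 10 CPM and 97 with a minimum of 50 CPM, and 260 to 314 with 1 library left out in turn. The other alternatives gave 207 (at most 15% mitochondrial UMIs) to 375 (each cell weighted equally). Without the crypt-gene and enterocyte-rich barcodes, an alternative chosen after seeing the data, it was 371. The share of tuft cells in library 2 was 0.139% when epithelial barcodes were thinned to 5000 UMIs and the rule applied again, against 0.253%. Barcodes below 5000 UMIs, some tuft cells among them, were left out before the rule. These were 363, 628, 410 and 229 epithelial barcodes in libraries 1 to 4. The cells that then met the rule numbered 19, 9, 10 and 12, against 23, 18, 12 and 16, so a loss can come from either step. In library 2 the tuft cells below 5000 UMIs were those of 2924, 4245 and 4703 UMIs, so most of its loss came at the rule. The count of markers outside the rule was 32 or 33 of 33 and that of interferon genes in library 1 13 or 14 of 14. Of 328 levels of 82 genes by library, 235 lay outside their Poisson interval with each cell weighted equally and 253 without the crypt-gene and enterocyte-rich barcodes, by more than 1.5-fold in 193 and 197, of which 170 and 169 were upward. Levels in library 3 rest on 12 cells and 221122 tuft UMIs, and small differences there were not detectable.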
